A study of Mus musculus with 38 samples.

Results

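Entry into torpor was examined by comparing the soleus muscle of mice sampled in the middle of a fasting-induced torpor experiment (Mid, n = 8) with that of mice sampled before food was removed (Pre, n = 4). These are 12 of the 38 libraries of the series, chosen by the sample titles, and all belong to the first of its 2 runs. All came from young adult male C57BL/6J mice. Pre mice had food at all times and were taken on day 1 at zeitgeber time (ZT) 22, near the end of the dark phase. Mid mice lost their food at the start of day 2 and were taken at the same hour, after 22 h without it. Fasting and torpor cannot be told apart in this pair of groups. Sampling was at a fixed hour, so that a Mid mouse could be inside or between bouts of low metabolism, and the metabolic state of single mice was not used here. Each library came from 1 mouse, from a single soleus muscle or the pair. The question was which promoters differed between the fed and the torpid state.

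Torpor is a controlled fall of metabolic rate and body temperature that mice enter when food is scarce and the surroundings are cool. The soleus is a postural muscle of the lower leg, made largely of slow and oxidative fibres that burn fatty acids and glucose in mitochondria. Fasting is known to move muscle from glucose to fat as a fuel, to lower fat and sterol synthesis, and to release amino acids from muscle protein through the ubiquitin-proteasome system and autophagy. Insulin restrains much of this programme, and glucocorticoids and the FOXO transcription factors promote it.

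RNA was measured by nAnT-iCAGE, which sequences the capped 5′ ends of transcripts without amplification, so that a tag marks a transcription start site (TSS) and a cluster of tags marks a promoter. A promoter's level is its tag count scaled to a common library size after TMM normalisation (CPM), on which transcript length plays no part. Between 23726836 and 31834199 tags fell in clusters in each of the 12 libraries. Changes are log2 fold changes of Mid over Pre from an edgeR fit, with their standard errors (SE), and a promoter was called, and is said to have risen or fallen, when its false discovery rate (FDR) was under 0.05. Values after ± are SD over 4 Pre or 8 Mid libraries. Promoters were named from the nearest annotated TSS within 500 bp. In bulk tissue, fewer cells of a type and less RNA per cell cannot be told apart.

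Sequence just upstream of 4 promoters described below is shown because each carries a large change and its highest CAGE peak lay within 50 bp of the RefSeq start. *Ppargc1a* encodes the coactivator of mitochondrial biogenesis, *Pdk4* the kinase that closes pyruvate dehydrogenase and *Trim63* the muscle ubiquitin ligase MuRF1, and all 3 rose. *Pnpla3* encodes a lipid droplet enzyme and fell. Each is the 200 bases before the peak, 5′ to 3′ on the strand of the gene, from RefSeq on GRCm38.p6. Capitals mark matches to the motifs searched on both strands.

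Ppargc1a, chr5:51567728-51567927, minus strand: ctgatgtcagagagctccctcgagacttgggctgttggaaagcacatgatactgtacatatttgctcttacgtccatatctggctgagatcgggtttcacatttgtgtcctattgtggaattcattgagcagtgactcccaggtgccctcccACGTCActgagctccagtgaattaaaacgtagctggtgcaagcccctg

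Pdk4, chr6:5496312-5496511, minus strand: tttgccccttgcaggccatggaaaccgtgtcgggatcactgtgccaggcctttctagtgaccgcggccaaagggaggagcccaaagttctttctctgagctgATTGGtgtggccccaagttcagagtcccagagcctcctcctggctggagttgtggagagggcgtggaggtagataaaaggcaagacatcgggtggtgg

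Trim63, chr4:134314918-134315117, plus strand: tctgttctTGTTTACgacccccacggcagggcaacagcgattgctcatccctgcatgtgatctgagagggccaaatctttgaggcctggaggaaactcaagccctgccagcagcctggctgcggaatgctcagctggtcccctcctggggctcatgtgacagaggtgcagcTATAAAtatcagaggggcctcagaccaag

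Pnpla3, chr15:84167634-84167833, plus strand: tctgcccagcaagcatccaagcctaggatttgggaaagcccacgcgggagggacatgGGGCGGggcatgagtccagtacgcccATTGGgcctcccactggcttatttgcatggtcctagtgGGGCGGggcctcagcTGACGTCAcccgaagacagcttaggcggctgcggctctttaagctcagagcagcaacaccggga

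The core of the cAMP response element, TGACGT, lay on the other strand of the upstream *Ppargc1a* promoter, 48 to 43 bases before the peak. The full element, TGACGTCA, which contains that core, lay 64 to 57 bases before the peak of *Pnpla3*, with 2 GC boxes, GGGCGG. A forkhead motif, GTAAACA, lay on the other strand of the *Trim63* promoter, which also held a TATA box, TATAAA, 29 to 24 bases before the peak. The match in *Pdk4* was a CCAAT box, CCAAT, on the other strand. Of 4574 promoters matched to a RefSeq start in this way, 12.2% held TGACGT, 3.52% TGACGTCA, 1.42% GTAAACA, 5.86% TATAAA, 34.1% CCAAT and 64.6% GGGCGG. Among the 760 of them that rose the shares were 14.5%, 4.47%, 2.24%, 4.74%, 35.9% and 71.6%, and among the 715 that fell they were 10.6%, 4.34%, 1.12%, 6.57%, 36.6% and 59.7%. The E-box CACGTG was in 8.55% of all, 11.1% of those that rose and 5.59% of those that fell. Median GC content was 64% in all, 65% in those that rose and 61.5% in those that fell.

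The slow-fibre genes *Myl3* and *Myh7* were at 6938 ± 160.1 and 1298 ± 139 CPM in Pre and at 6842 ± 873 and 1213 ± 170.2 CPM in Mid, and none of 7 slow or 12 fast muscle markers was called. Pre 2 had a sum of 752 CPM over 5 Schwann cell markers, against 137 to 163 CPM in the other Pre libraries and 87.4 to 204 CPM in Mid. Mid 1 had the highest sum of 10 adipocyte markers, 4848 CPM against 2227 to 3461 CPM in the other Mid libraries and 2614 to 3328 CPM in Pre. Only *Plin1* of these 10 was called. Most of the sum was *Car3*, at 2204 to 2361 CPM in Pre and 2039 to 3223 CPM in Mid. Other members varied more between libraries. *Adipoq* ranged from 6.90 to 33.0 CPM in Pre and from 1.46 to 41.6 CPM in Mid. For *Plin1* the ranges were 9.74 to 43.0 and 1.05 to 19.9 CPM. Red blood cell markers summed to 3601 to 5134 CPM in Pre and 2989 to 4238 CPM in Mid, and neutrophil markers to 1.54 to 4.57 and 2.42 to 5.41 CPM.

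Of 10776 promoters with any tag, 1659 were higher and 1594 lower in Mid, so that 30.2% were called, 15.4% upwards and 14.8% downwards. With 1 promoter taken per gene the share called was 31.2%. Most differences were small, with a median absolute log2 fold change of 0.48 among promoters that rose and 0.40 among those that fell, and 241 and 127 of them reached 1. The balance of rises and falls moved with the scaling. Upper-quartile scaling gave 1282 higher and 2308 lower, and library size alone 534 and 924, with the median over all promoters at -0.06 and -0.07. Every Mid library lay above every Pre library at 7.54% of all promoters and below at 7.31%, or 7.49% and 7.72% with 1 promoter per gene. In the second run, with 5 Mid and 2 Pre libraries from other mice, 1594 of the 1659 promoters that rose and 1461 of the 1594 that fell had the same sign.

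Genes for burning fat rose more often than genes in general. Of 33 fatty acid oxidation genes with a promoter, 17 rose and none fell, where 15.6% of all genes rose and 15.6% fell, and their median log2 fold change was 0.22 against 0.01 over all promoters. With library size alone 9 rose. *Acot1*, which splits long-chain acyl-CoA in the cytosol, stood at 2.02, 2.22, 2.60 and 3.10 CPM in Pre and at 9.27 to 32.6 CPM (median 24.8) in Mid, a log2 fold change of 3.24 (SE 0.31, FDR 4.1e-08). *Ucp3*, the muscle uncoupling protein, stood at 13.4, 9.27, 14.04 and 11.2 CPM in Pre and at 34.0 to 113 CPM (median 80.2) in Mid, a log2 fold change of 2.72 (SE 0.27). No Mid value of either gene overlapped with Pre, and Mid 6 was the lowest of Mid in both. *Acot2*, the mitochondrial counterpart of *Acot1*, rose from 31.8 ± 3.31 to 115 ± 23.0 CPM. *Angptl4*, an inhibitor of lipoprotein lipase, rose by 2.62 (SE 0.45) on the log2 scale and *Ppara*, the nuclear receptor that drives fat oxidation genes, by 1.36 (SE 0.13). Of 11 peroxisomal genes 4 rose, 2 with library size alone, and 1 fell, and *Ehhadh* of peroxisomal beta-oxidation rose by 1.599. *Fabp3*, the fatty acid binding protein of muscle, was at 3256 ± 337 CPM in Pre and 3723 ± 679 CPM in Mid (FDR 0.38), and *Acadvl*, an early enzyme of mitochondrial beta-oxidation, had a log2 fold change of 0.20 and was not called.

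Pyruvate dehydrogenase gates the entry of glucose carbon into mitochondria. Kinases of the PDK family switch it off and the phosphatases *Pdp1* and *Pdp2* switch it on. *Pdk4* had the largest gain in CPM of all annotated promoters that rose. It stood at 569.7, 297, 494.9 and 392.1 CPM in Pre and at 1717 to 5944 CPM (median 4903) in Mid, a log2 fold change of 3.42 (SE 0.29, FDR 2.0e-08), with no overlap. Capped tags also formed 7 clusters inside the *Pdk4* gene with no annotated TSS, and all 7 rose, by 2.46 to 3.58 on the log2 scale. The phosphatases moved in opposite directions, with log2 fold changes of 1.45 (SE 0.18) for *Pdp2* and -1.02 (SE 0.14) for *Pdp1*. In all, 3 of 14 genes around pyruvate dehydrogenase rose and 1 fell, shares of 21.4% and 7.14% against 15.6% of all genes in each direction. Of 39 genes of glycolysis and glycogen 4 rose and 7 fell, shares of 10.3% and 17.95%, the latter near that of all genes. The falls numbered 3 without Pre 2 or with library size alone and 11 with upper-quartile scaling. *Ldha* and *Pgam2*, glycolytic enzymes, had log2 fold changes of -0.40 and -0.31, and neither was called without Pre 2. *Txnip*, which restrains glucose uptake, rose from 169.7 ± 16.5 to 509.7 ± 141 CPM. Of 20 tricarboxylic acid cycle genes 1 was called, and *Idh2* differed by 0.02.

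**Figure D1:**
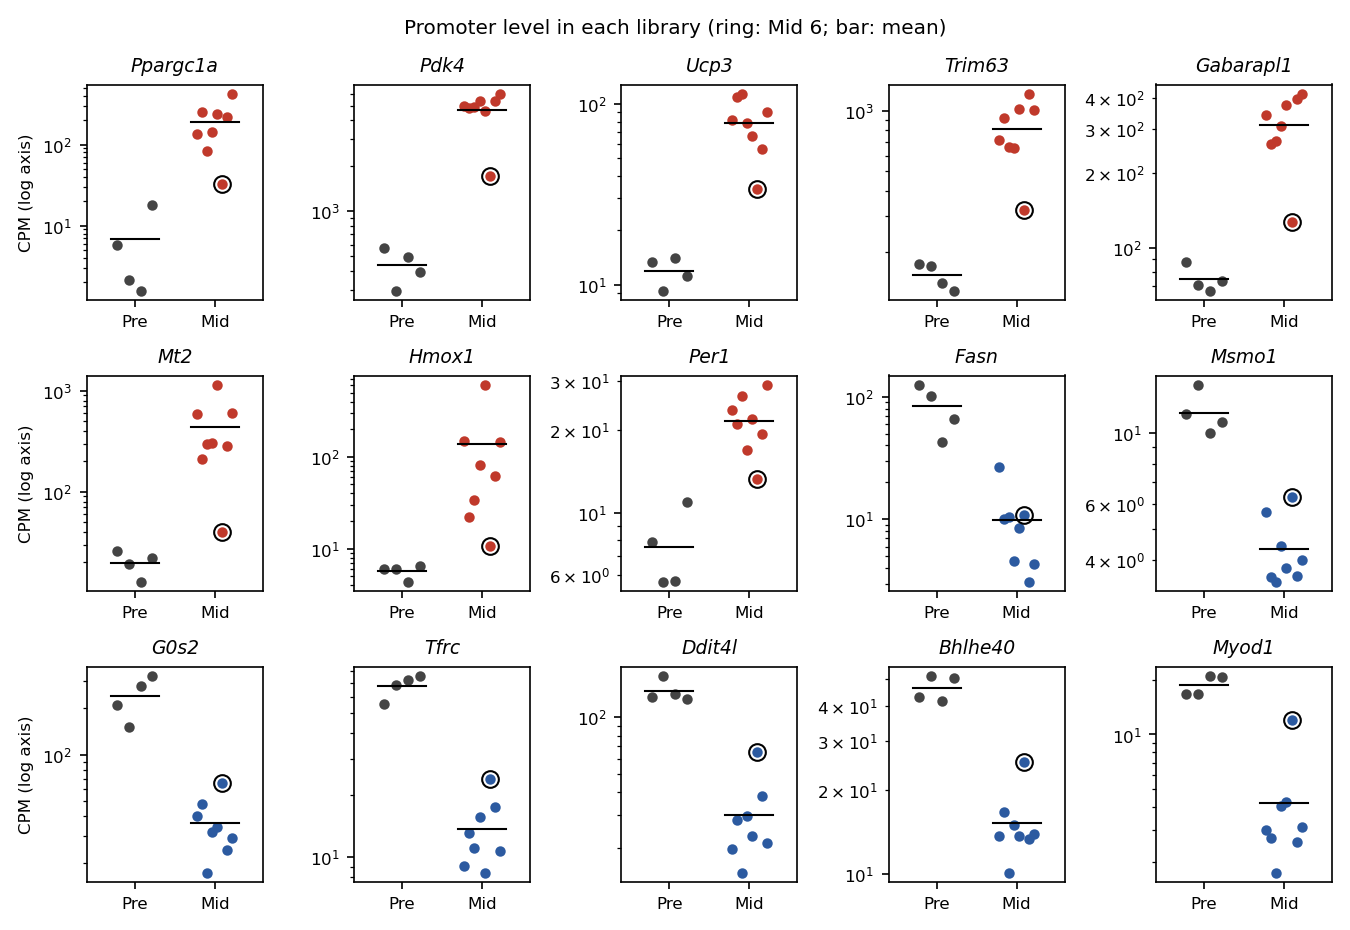
Level of 15 promoters in each library, in CPM on log axes that differ between panels, for Pre (grey, n = 4) and Mid (red where higher, blue where lower, n = 8). Bars are group means and the ring marks Mid 6, which is the Mid library nearest to Pre in every panel but that of Fasn.

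Genes of fat and sterol synthesis fell more often than genes in general. Of 24 fatty acid synthesis genes 14 fell and 3 rose, with a median log2 fold change of -0.45, and of 16 cholesterol genes 12 fell and 1 rose, with a median of -0.65. *Fasn*, fatty acid synthase, stood at 124, 101, 43.1 and 65.2 CPM in Pre and at 3.11 to 26.7 CPM (median 9.24) in Mid, a log2 fold change of -3.09 (SE 0.43). Groups did not overlap, and the highest Mid value was that of Mid 1. *Acly*, which supplies cytosolic acetyl-CoA, fell from 43.5 ± 10.7 to 10.7 ± 1.81 CPM. *Thrsp*, a lipogenic factor, and *Pnpla3* had log2 fold changes of -1.80 (SE 0.29) and -2.79 (SE 0.36). *Angptl8*, which fed tissues make, was at 1.70 to 3.17 CPM in Pre and at most 0.251 CPM in Mid. *Scd1*, the fatty acid desaturase, ranged from 141 to 719 CPM in Pre and from 36.8 to 924 CPM in Mid and was not called. The members that rose were *Acacb*, whose product restrains the entry of fat into mitochondria, at 0.68, and the triglyceride synthesis genes *Lpin1* and *Dgat2*, at 0.63 and 0.33.

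Among sterol genes *Msmo1*, a demethylating enzyme of the synthetic pathway, stood at 11.4, 14.03, 9.94 and 10.8 CPM in Pre and at 3.44 to 6.30 CPM (median 3.91) in Mid, a log2 fold change of -1.41 (SE 0.15, FDR 2.7e-07) with no overlap. *Insig1*, which retains the sterol sensor, fell from 21.95 ± 4.19 to 12.01 ± 1.28 CPM, also with no overlap. *Abca1*, which exports cholesterol, was the member that rose, by 0.54, a call lost without Pre 3. Adipocytes and Schwann cells also make these lipids. Without Pre 2, 12 fatty acid synthesis and 11 cholesterol genes fell, and 15 and 12 fell with the adipocyte sum as a covariate. That sum mixes *Car3*, its largest part, with markers that varied more between libraries, and is no clean measure of adipocytes. The fit therefore cannot decide the part of adipocytes, which was not tested.

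Of 19 lipid droplet genes 9 rose and 3 fell, shares of 47.4% and 15.8%, the latter near the 15.6% of all genes. *Pnpla2*, the lipase that opens triglyceride breakdown, stood at 142, 108, 99.8 and 127 CPM in Pre and at 154 to 349 CPM (median 309.8) in Mid, a log2 fold change of 1.29 (SE 0.17). *G0s2*, its protein inhibitor, stood at 208, 151, 276 and 319.7 CPM in Pre and at 17.3 to 65.9 CPM (median 32.9) in Mid, a log2 fold change of -2.72 (SE 0.26). Neither gene overlapped between the groups. The droplet coat genes *Plin4* and *Plin5* rose by 1.19 and 1.27. *Plin1*, the coat gene of adipocytes, fell (-1.64, FDR 0.039), and the call was lost without Mid 2, 3, 4, 7 or 8 or Pre 1 or 2.

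*Ppargc1a* is transcribed from a proximal promoter and from one upstream. The upstream promoter, on chromosome 5 with its highest peak at 51567727, stood at 5.75, 2.15, 1.58 and 18.2 CPM in Pre and at 32.6 to 417 CPM (median 181) in Mid, a log2 fold change of 4.78 (SE 0.67, FDR 7.1e-06). The proximal promoter at 51553874 was at 41.8 ± 0.507 CPM in Pre and 36.3 ± 8.95 CPM in Mid and was not called (FDR 0.28). One of the 2 promoters was thus called. *Fnip1*, a partner of folliculin in energy sensing, rose from 26.6 ± 4.08 to 63.9 ± 5.63 CPM and had one of the 5 smallest p-values among rises. The paralog *Ppargc1b* fell (-0.86). *Esrra*, the nuclear receptor that works with PGC-1alpha, and *Prkaa2*, a catalytic subunit of AMP kinase, had log2 fold changes of 0.29 and 0.01 and were not called. In the whole list 10 of 26 genes rose and 5 fell, 38.5% and 19.2% against 15.6% of all genes in each direction. The falls numbered 2 or 3 without Mid 1, 5 or 8 or Pre 1 or 4. With library size alone 4 rose and 2 fell.

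Of 83 respiratory chain genes none rose and 17 fell, each by less than 0.5 on the log2 scale. The share that fell was 20.5%, against 15.6% of all genes. *Atp5e* of the ATP synthase went from 2002 ± 248 to 1487 ± 164 CPM (log2 fold change -0.43), and *Ndufb8* and *Ndufb10* of complex I and *Cox5b* of complex IV had log2 fold changes of -0.39, -0.30 and -0.18. *Cox6a2*, a muscle subunit of complex IV, was at 8279 ± 225 CPM in Pre and 7402 ± 525 CPM in Mid and was not called. The count of 17 was 10 without Mid 2, 6 without Pre 3, 4 with library size alone and 43 with upper-quartile scaling. In the second run 14 of the 17 were lower, but *Atp5e* was at -0.07 (FDR 0.78) and *Cox5b* at 0.03 (FDR 0.91).

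Of 27 genes of the FOXO and atrophy list 21 rose and 2 fell, with a median log2 fold change of 0.83, while the lists of autophagy and the proteasome had smaller shares of rises. *Trim63* stood at 174, 169, 140.1 and 128 CPM in Pre and at 321 to 1209 CPM (median 818) in Mid, a log2 fold change of 2.42 (SE 0.26) with no overlap. *Fbxo32*, the ligase atrogin-1, rose from 112 ± 10.3 to 298 ± 77.3 CPM, and the transcription factor *Foxo1* by 1.14 on the log2 scale. *Sesn1* and *Ddit4*, which restrain the growth kinase mTORC1, rose by 2.19 (SE 0.24) and 2.65 (SE 0.43). *Cdkn1a*, the cell cycle inhibitor p21, rose from 53.9 ± 17.9 to 233 ± 59.1 CPM. *Depp1*, a FOXO target that is not in the list, rose by 2.81. The members that fell were *Trim55*, a sarcomeric relative of MuRF1, and *Fst*, the inhibitor of myostatin, at -0.50 and -0.54.

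In autophagy 14 of 40 genes rose and 5 fell, shares of 35% and 12.5%. The falls numbered 3 without Mid 2, Pre 1 or Pre 2, and 5 genes rose with library size alone. *Gabarapl1*, of the family that coats the autophagosome, stood at 87.2, 70.7, 67.2 and 73.6 CPM in Pre and at 126 to 413 CPM (median 324) in Mid, a log2 fold change of 2.05 (SE 0.21). The initiating kinase *Ulk1*, the early factor *Atg13* and the cargo receptor *Sqstm1* rose by 1.44, 0.83 and 0.89. *Retreg1*, the receptor for autophagy of the endoplasmic reticulum, rose from 192 ± 25.3 to 760.0 ± 232 CPM at its downstream promoter and was not called at the upstream one, 11.3 ± 1.48 against 12.7 ± 1.63 CPM. Of 44 proteasome genes 8 rose and 7 fell, and these shares, 18.2% and 15.9%, were near the 15.6% of all genes in each direction. With the 12 libraries alone 4 rose, and with library size alone 2. *Psmd11* of its regulatory particle rose by 0.60 and the immunoproteasome subunit *Psmb8* fell (-0.81).

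Of 45 insulin, IGF and mTOR genes 13 rose and 7 fell (28.9% and 15.6%), and 6 rose with library size alone. *Irs2*, an insulin receptor substrate, rose by 1.14, and *Eif4ebp1*, the repressor of cap-dependent translation, from 133 ± 7.505 to 271 ± 59.9 CPM. *Ddit4l*, the paralog of *Ddit4*, moved against it. It stood at 129, 166, 134 and 125 CPM in Pre and at 14.9 to 65.4 CPM (median 25.7) in Mid, a log2 fold change of -2.20 (SE 0.27). The growth factor *Igf1* fell (-1.24), and *Igfbp5*, an IGF binding protein, fell from 267 ± 74.4 to 108 ± 23.7 CPM. Of 14 amino acid transporter genes 7 rose and none fell, and 5 rose without Pre 2 or without Pre 3 and 4 with library size alone. The largest of these changes was that of *Slc43a1*, a carrier of large neutral amino acids, at 1.71.

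Of 79 cytosolic ribosomal protein genes 35 fell and none rose, each by less than 0.5 on the log2 scale. *Rpl35a* had a log2 fold change of -0.43. The count was 18 to 22 without any of Mid 2, Mid 6, Mid 8, Pre 1, Pre 2 or Pre 3, 2 with library size alone and 54 with upper-quartile scaling. In the second run 15 of the 35 were lower, none at an FDR under 0.05. The edgeR test of run by condition gave an unadjusted p under 0.05 for 16 of the 35, with a lowest FDR of 0.42. Over all 10818 promoters that test gave no FDR under 0.05 and 515 unadjusted p-values under 0.05.

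**Figure D2:**
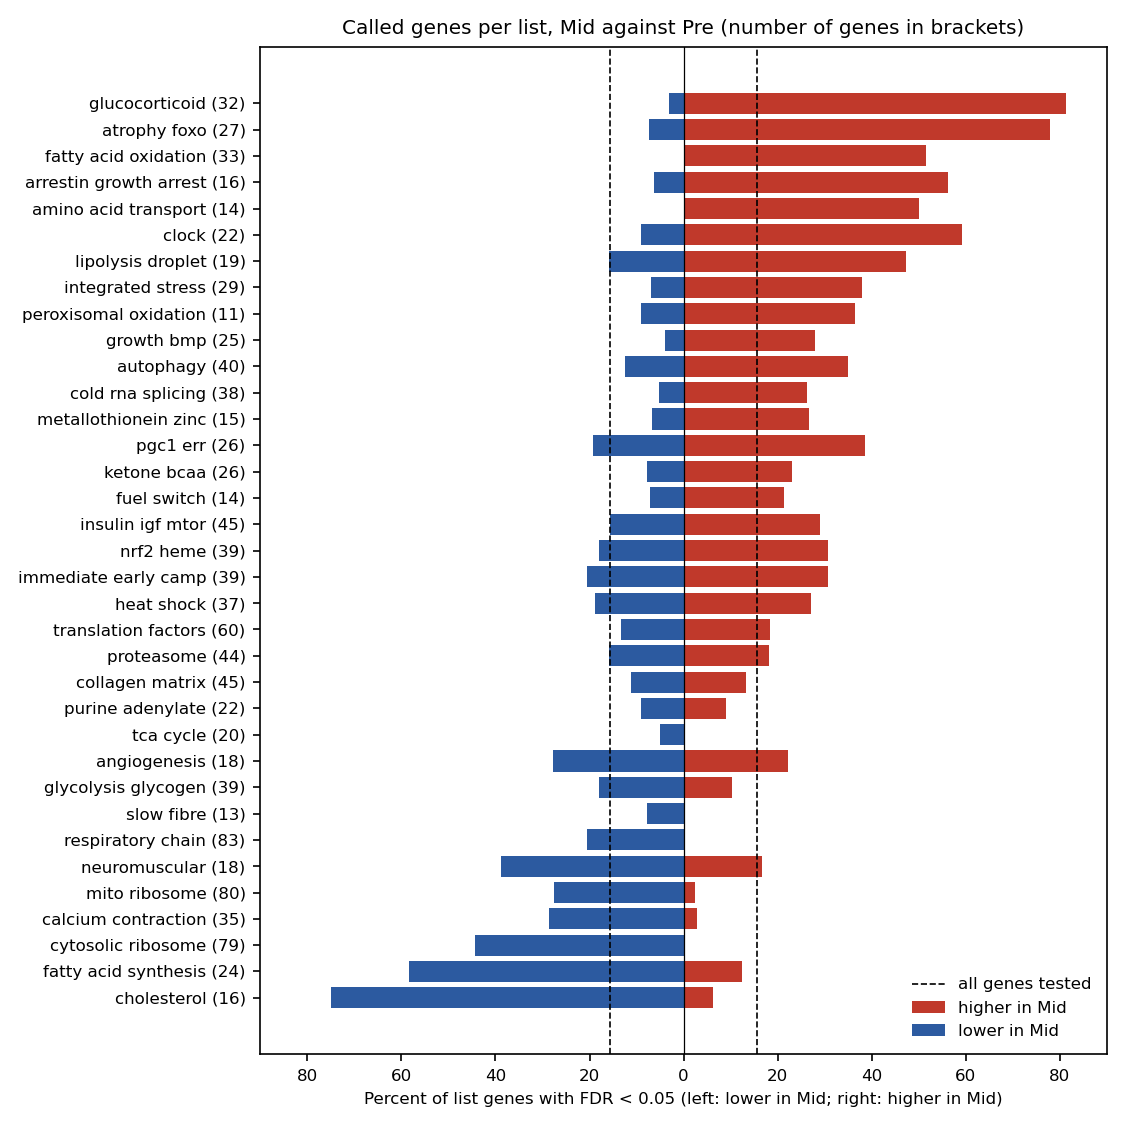
Share of the genes of each list that were higher (red, right) or lower (blue, left) in Mid at an FDR under 0.05, with 1 promoter per gene and the number of genes in brackets, for lists of at least 10 genes. Dashed lines mark the 15.6% of all genes that rose and the 15.6% that fell. The glucocorticoid and FOXO lists reach furthest right and the cholesterol list furthest left.

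Of 32 glucocorticoid-responsive genes 26 rose and 1 fell, with a median log2 fold change of 1.21. This list shares members with those above, among them *Pdk4*, *Ddit4*, *Sesn1*, *Cdkn1a*, *Foxo1* and *Fbxo32*, so that its count repeats theirs in part. *Mt2*, a metallothionein that binds zinc, stood at 25.7, 19.2, 12.9 and 21.99 CPM in Pre and at 40.2 to 1131 CPM (median 299) in Mid, a log2 fold change of 4.44 (SE 0.59), and its neighbour *Mt1* rose by 2.74 (SE 0.37). *Tsc22d3*, the leucine zipper GILZ, rose by 1.57, the transcription factor *Cebpd* by 2.47, *Klf15*, which drives amino acid breakdown, by 1.57 and the arrestin-domain gene *Arrdc2* from 6.78 ± 0.462 to 42.3 ± 16.9 CPM. The receptor itself, *Nr3c1*, was the member that fell, from 15.3 ± 1.24 to 9.45 ± 1.66 CPM with no overlap. *Dusp1*, a phosphatase that the receptor induces, had a log2 fold change of -0.34 and was not called.

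*Hmox1*, heme oxygenase, stood at 6.09, 5.97, 4.38 and 6.55 CPM in Pre and at 10.6 to 601 CPM (median 72.0) in Mid, a log2 fold change of 4.59 (SE 0.83, FDR 1.6e-04). The highest value was that of Mid 5 and the lowest that of Mid 6. *Osgin1* and *Gclm*, further targets of the oxidative stress factor NRF2, rose by 1.47 and 1.31, in a list of 39 of which 12 rose and 7 fell (30.8% and 17.95%). With library size alone 5 of these rose, and without Pre 1 the falls numbered 4. *Tfrc*, the transferrin receptor for iron uptake, stood at 55.1, 68.6, 71.9 and 75.2 CPM in Pre and at 8.44 to 24.0 CPM (median 12.1) in Mid, a log2 fold change of -2.30 (SE 0.18, FDR 7.9e-09) with no overlap, and *Alas1*, the first enzyme of heme synthesis, fell (-0.56). Of 15 metallothionein and zinc genes 4 rose and 1 fell (26.7% and 6.67%), and the zinc exporter *Slc30a1* rose by 1.13.

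In the integrated stress response, by which cells slow translation, 11 of 29 genes rose and 2 fell (37.9% and 6.9%), and 6 rose with library size alone. *Ppp1r15a*, which reverses that block, rose from 17.9 ± 3.27 to 51.0 ± 11.2 CPM and the glutathione-degrading *Chac1* by 1.66, while *Ddit3*, the factor CHOP, fell (-0.67). Of 37 heat shock genes 10 rose and 7 fell, against 2 and 4 with library size alone and 6 rises with upper-quartile scaling, with log2 fold changes of 0.98 for *Hspb1* and -0.99 for *Hspb3*. *Cryab*, an abundant small heat shock protein of muscle, was at 6224 ± 632 CPM in Pre and 6442 ± 1142 CPM in Mid.

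Clock genes differed although the hour of sampling was the same, 13 of 22 rising and 2 falling. The repressors *Per1*, *Cry2* and *Per2* rose by 1.51 (SE 0.24), 1.01 (SE 0.14) and 0.95 (SE 0.23). *Bhlhe40*, which acts on the same E-boxes, stood at 43.2, 51.1, 41.6 and 50.2 CPM in Pre and at 10.1 to 25.2 CPM (median 13.8) in Mid, a log2 fold change of -1.62 (SE 0.15), and its paralog *Bhlhe41* fell (-0.58). With library size alone 6 clock genes rose. Of 39 early response and cAMP genes 12 rose and 8 fell (30.8% and 20.5%). The falls numbered 3 without Pre 2, 4 without Pre 3 and 3 with library size alone. *Myc* rose from 2.65 ± 0.419 to 10.9 ± 3.45 CPM and *Mafk*, a small partner of NRF2, by 1.52. *Nr4a1* and the phosphodiesterase *Pde4a* had log2 fold changes of -0.91 and -0.95, the former not called without Pre 2 or Pre 3. *Egr1* was at -0.06 and not called.

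Of 13 slow-fibre genes 1 was called. Of 35 calcium and contraction genes 10 fell and 1 rose, shares of 28.6% and 2.86%, and the triad genes *Stac3* and *Jph2* and the calcium store *Casq1* had log2 fold changes of -0.73, -0.66 and -0.42, the last not called without Pre 2. *Ryr1*, the calcium release channel, was at 0.10 and not called. The stretch-responsive gene *Ankrd2* rose from 635 ± 60.4 to 1781 ± 259 CPM, *Xirp1* of the muscle attachment sites from 457 ± 119 to 1244 ± 240.2 CPM and *Lmod2*, which elongates thin filaments, from 794 ± 70.7 to 1725 ± 329.5 CPM. The thin-filament giant *Neb* rose by 0.55 but by 0.04 in the second run, and *Nrap* rose by 0.37. *Synpo2* of the Z disc fell (-0.45).

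Of 18 neuromuscular and myogenic genes 7 fell and 3 rose, shares of 38.9% and 16.7%, the latter near the 15.6% of all genes. *Myod1*, a myogenic transcription factor, stood at 16.8, 16.7, 20.9 and 20.8 CPM in Pre and at 1.74 to 12.1 CPM (median 3.04) in Mid, a log2 fold change of -2.17 (SE 0.29), and the deacetylase *Hdac9* fell (-1.99). *Musk* and *Dok7*, which gather acetylcholine receptors at the synapse, rose by 0.82 and 1.00. Of 18 angiogenesis genes 4 rose and 5 fell (22.2% and 27.8%), and with library size alone 1 rose. *Kdr* and *Flt1*, receptors for VEGF, had log2 fold changes of -0.83 and 0.69, the apelin receptor *Aplnr* -1.56, and *Vegfa* 0.08, not called. Endothelial markers summed to 319 to 346 CPM in Pre and 334 to 460 CPM in Mid, and their part in these values was not tested. Of 45 matrix genes 6 rose, 2 with library size alone, and 5 fell. These shares, 13.3% and 11.1%, were below the 15.6% of all genes in each direction. *Lox*, which crosslinks collagen, was at 1.16 and *Col15a1* at -1.03.

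Several of the largest falls lay outside these lists. *Tnk2*, a tyrosine kinase, stood at 14.6, 16.8, 18.5 and 17.2 CPM in Pre and at 0.889 to 5.82 CPM (median 2.15) in Mid, a log2 fold change of -2.90 (SE 0.33). *Lrrc38*, an auxiliary subunit of potassium channels, was at -2.68, *Ptges*, a prostaglandin E synthase, at -2.64, *Sec14l5* at -2.46, *Mchr1*, the receptor for melanin-concentrating hormone, at -2.39 and *Kbtbd13*, a muscle ubiquitin ligase adaptor, at -2.27. None of these overlapped. The chemokine *Ccl2* fell (-2.68) but ranged from 0.527 to 9.49 CPM in Pre and overlapped with Mid. *6430571L13Rik*, *3300002P13Rik* and the complement-pathway protease *Masp1* fell without overlap, at -2.26, -1.52 and -1.12. *Gm22175* fell (-2.54), overlapped and was not called without Pre 2. Among rises, *Slc25a34*, a mitochondrial carrier, went from 14.4 ± 2.81 to 66.3 ± 15.9 CPM and *Tacc2*, a microtubule-associated gene, from 88.8 ± 13.9 to 351 ± 84.6 CPM at its main promoter, both among the 5 smallest p-values of the rises.

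Of 458 genes with more than 1 tested promoter, 30 had both a rise and a fall. A called promoter stood beside an uncalled one in 171, where 30.2% of all promoters were called, and this count is no test of a difference between them. Of the 30 promoters with the largest log2 fold changes, 9 belonged to genes with another promoter. These 9 were chosen for the change of the named promoter, so the shares that follow are a description with no test. Each is the mean over libraries of the share of the named promoter in its own tags and those of the gene's highest other promoter. For *Ppargc1a* the upstream promoter held 12.7% in Pre and 78.4% in Mid. For *Lrch1*, a leucine-rich repeat gene, a promoter 47954 bp downstream of the other held 11.6% and 58.5%. For *Pde4d*, a cAMP phosphodiesterase, a promoter 21695 bp downstream held 13.8% and 60.4%. The other *Pde4d* promoter of this pair also rose, by 0.53 (SE 0.14, FDR 0.0061). Those with peaks at 109686007 and 109902972 were not called and are not in the share. For the zinc transporter *Slc30a2* a promoter 812 bp upstream held 10.6% and 51.7%, and for *Slc39a14*, a zinc and iron importer, one 19940 bp downstream held 7.19% and 32.2%.

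Among the remaining 4 genes, too, the other promoter did not always stay the same. *Ampd3*, an AMP deaminase, rose by 2.92 (SE 0.27) at the named promoter and by 0.35 at one 4551 bp away, while the main muscle form *Ampd1* was at 0.09 and not called. *Arpp19*, a phosphatase regulator, was at 106 ± 4.13 CPM in Pre and 106 ± 9.77 CPM in Mid at its main promoter and rose from 1.102 ± 0.343 to 8.65 ± 3.14 CPM at a downstream one. *Acaca*, acetyl-CoA carboxylase of fat synthesis, fell from 14.6 ± 6.14 to 0.921 ± 1.03 CPM at its upstream promoter and was not called 6533 bp downstream (-0.34, FDR 0.070). Yet another *Acaca* promoter, with its peak at 84180332, fell from 6.52 ± 1.48 to 4.03 ± 1.07 CPM (-0.70, SE 0.21, FDR 0.012). *Atf3*, a stress-induced transcription factor, rose at both promoters, with overlap between the groups at each. The upstream rise was 3.27 (SE 0.93), with a Mid median of 0.69 CPM, Mid 2 at 8.47 CPM and the next library at 3.70 CPM. Downstream it was 1.25 (SE 0.25). Neither *Atf3* promoter was called in the second run (FDR 0.27 and 0.19). In the second run the change of the ratio of the 2 promoters had the same direction in all 9 genes.

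**Figure D3:**
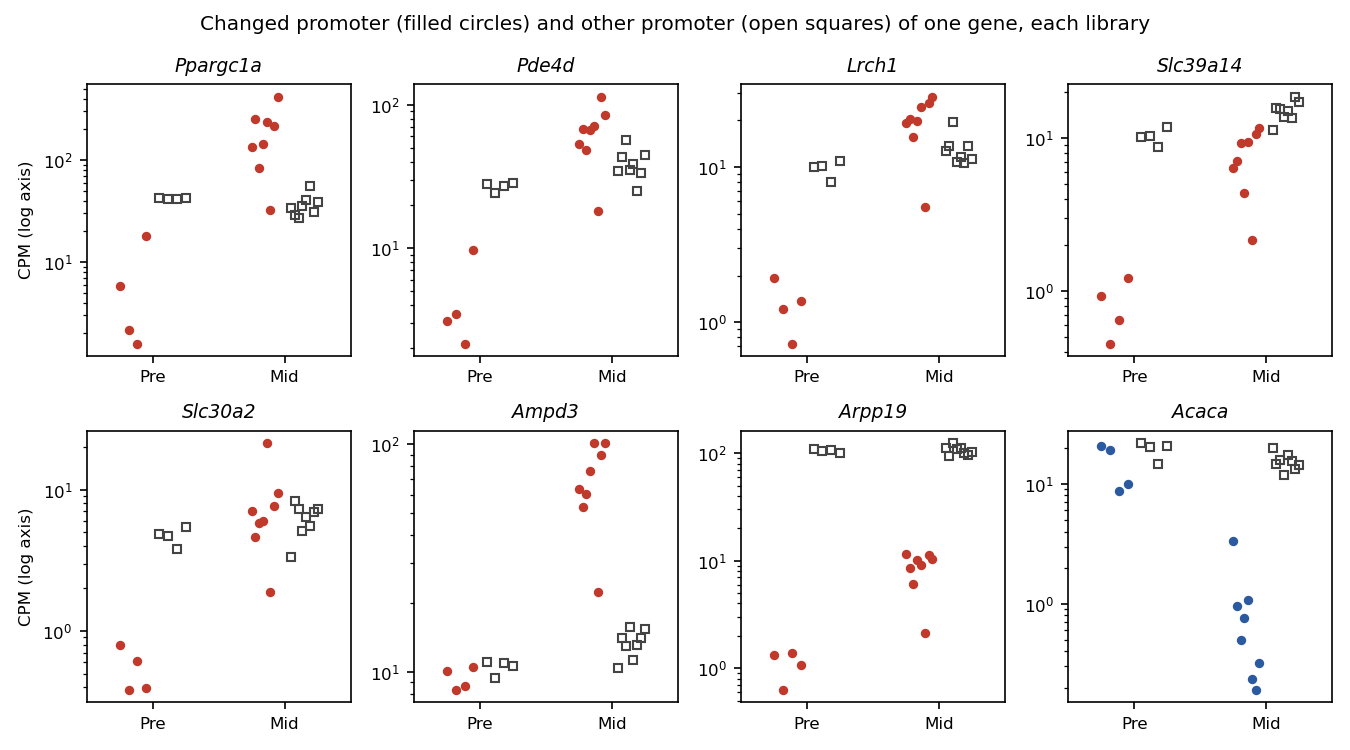
Level in CPM (log axes, values under 0.1 drawn at 0.1) of the named promoter (filled circles) and of the highest other promoter (open squares) of 8 genes in each Pre (n = 4) and Mid (n = 8) library. The filled circles of Ppargc1a go from 12.7% to 78.4% of the tags of the pair, while the open squares of Arpp19 have a mean of 106 CPM in both groups.

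Classes of transcript differed in their balance. Of 111 long non-coding promoters (lincRNA and antisense) 9 rose and 32 fell, of 593 processed pseudogenes 28 rose and 81 fell, and of 1185 clusters with no annotated TSS 151 rose and 87 fell, against 1460 and 1378 of 8735 protein-coding promoters. Tags of a pseudogene can come from its parent gene. Promoters that rose had a median width of 316 bp, those that fell 272 bp and those not called 275 bp. Their median levels over the 28 libraries also differed, at 24.6, 16.9 and 16.3 CPM. The part of level in the widths was not tested.

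**Figure D4:**
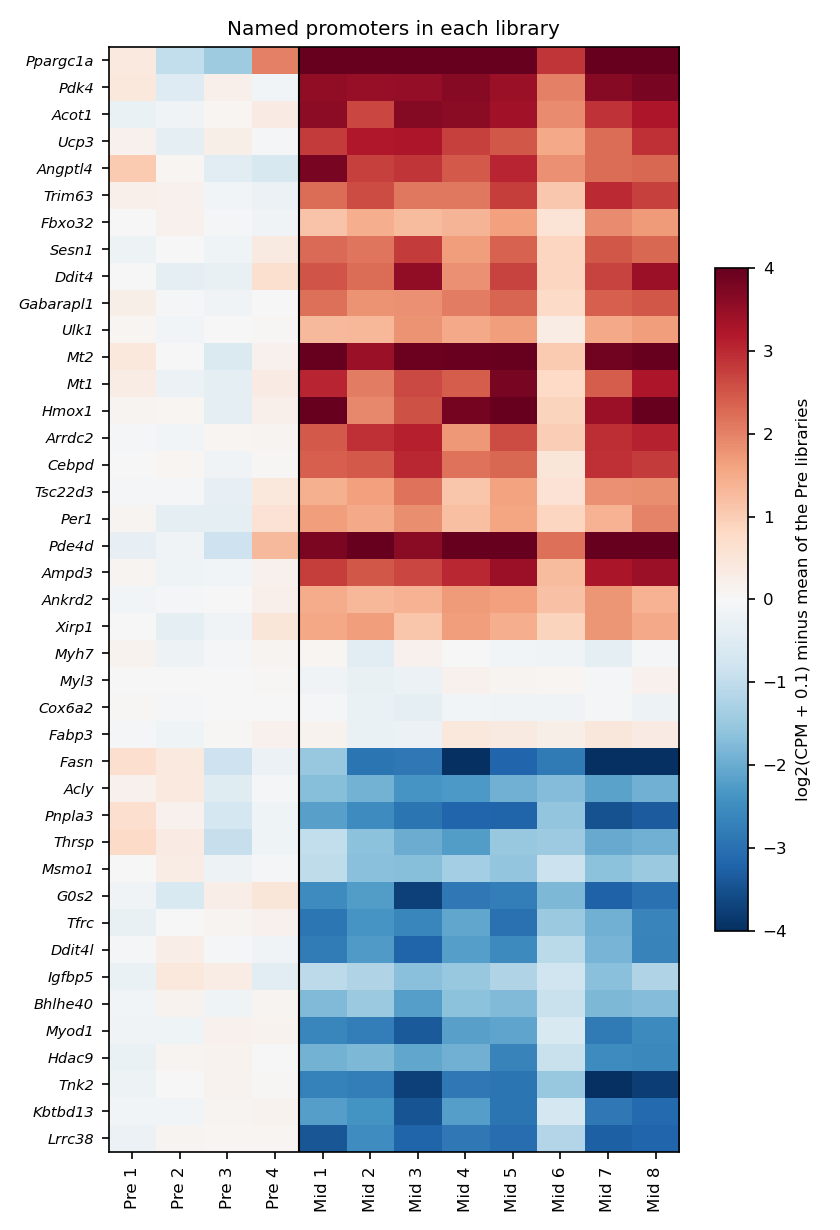
Difference of log2(CPM + 0.1) from the mean of the Pre libraries for 41 named promoters (rows) in the 12 libraries (columns), with the colour scale ending at 4 on either side. Myh7, Myl3, Cox6a2 and Fabp3, which were not called, stay pale in all libraries.

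The Mid mice differed in the size of their change. For each Mid library, promoters were called without it and its own change from the Pre mean was then taken on the log2(CPM + 0.1) scale, so that the library had no part in the choice. Over the promoters that rose, the median change was 0.45 to 0.54 in Mid 1 to 5, 7 and 8 and 0.17 in Mid 6, where the other 7 libraries gave 0.47 for the same promoters. Over those that fell it was -0.56 to -0.38 in these 7 libraries and -0.18 in Mid 6. In Mid 6, 82.9% of the promoters that rose and 85.2% of those that fell moved in the same direction. *Pdk4* at 1717 CPM, *Trim63* at 321 CPM and upstream *Ppargc1a* at 32.6 CPM were lowest of Mid in this mouse and above every Pre library. Mid 6 had 30395676 tags and the lowest TMM factor of the 12 libraries, 0.83. Without it 1917 promoters were higher and 1638 lower. The part of metabolic state or depth in this was not tested.

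**Figure D5:**
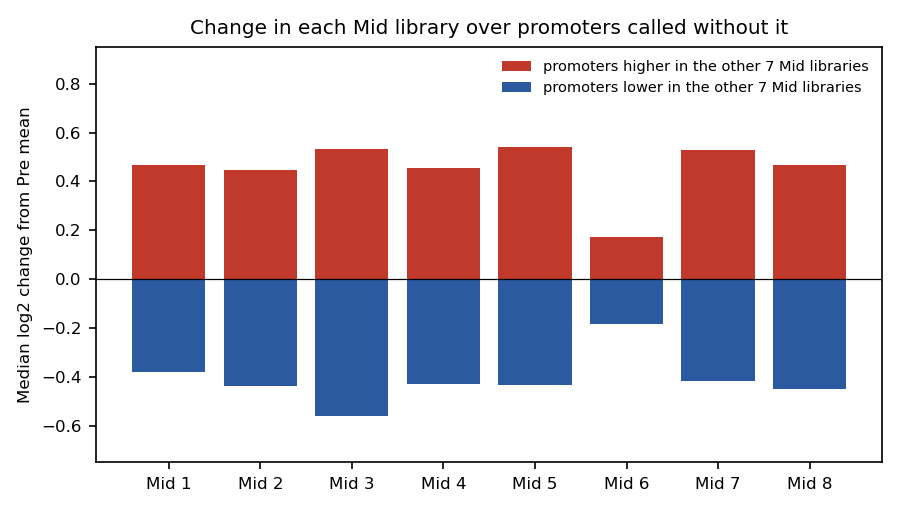
Median change from the Pre mean, on the log2(CPM + 0.1) scale, in each Mid library over the promoters called higher (red) or lower (blue) without that library. Mid 6 reaches 0.17 and -0.18, and the other 7 libraries 0.45 to 0.54 and -0.56 to -0.38.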

How the data were processed

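The authors mapped nAnT-iCAGE reads to mm10 with BWA and HISAT2 (versions not given in the sources used here) and deposited counts of tags in 10819 promoter clusters, not normalised, beside TPM values that the authors scaled from them and that were not used. Clusters were matched to GENCODE M21 by the nearest TSS on the same strand within 500 bp (9615 clusters, 9077 genes). Counts were tested with edgeR 4.0.16 in R 4.3.3, using TMM factors and quasi-likelihood F tests. The 28 libraries of the first run entered together, with group as the only term and Mid against Pre as the contrast. The other 4 groups entered the scaling, the estimate of the spread and the choice of promoter in lists, and the labels and the paper differ on the food of 2 of them, HiT and Fed. P-values were adjusted by Benjamini-Hochberg over 10776 promoters. SE is the log2 fold change over the square root of F. The scripts were tested on simulated data. Libraries of a group were compared in pairs and none were duplicates.

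In lists, a gene with several promoters was counted by the one with the highest mean over 28 libraries. Named promoters are the 15 with the largest log2 fold change and the 10 with the largest difference in CPM in each direction, the 5 with the smallest p, and up to 4 per list and direction, with at least 1 CPM in the higher group for the first and last rules, plus central genes that were not called. Some promoters that meet these rules are not reported here. *Fbxo32*, *Foxo1*, *Tsc22d3*, *Cebpd* and *Thrsp* were chosen after their values were seen. The libraries compared and all 36 pathway and 10 marker lists were chosen with earlier results of these data known. Of the marker lists, 1 of 8 macrophage genes rose, 4 of 9 endothelial genes rose and 3 fell, 2 of 7 tendon genes fell, 1 of 5 Schwann cell genes fell, and none of 2 brown adipocyte, 5 red blood cell and 5 neutrophil genes was called.

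Of the pathway lists not described in the report, 6 of 26 ketone and branched-chain amino acid genes rose and 2 fell, 2 of 80 mitochondrial ribosome genes rose and 22 fell, 11 of 60 translation factors rose and 8 fell, 10 of 38 cold and splicing genes rose and 2 fell, 7 of 25 growth and BMP genes rose and 1 fell, 2 of 22 purine genes rose and 2 fell, 1 of 8 cell division genes rose and 1 fell, and 9 of 16 arrestin and growth arrest genes rose and 1 fell. Over all genes 15.6% rose and 15.6% fell. Near-identical copies, overlapping genes and 261 clusters with more than 1 gene in the window are uncertain in name.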

Additional observations from a re-analysis of the deposited data

Results flagged for a closer look

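A library was taken as far from the others of its group when its gap to the nearest, over the range of the group, passed Dixon's critical value. Chance gives about 1 in 20 groups. Of 254 groups, 2 for each of 127 named promoters, 39 were so marked (15.4%), 22 of them by Mid 6.

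Mid 6 was below the other Mid libraries at promoters that rose. It had 1717 CPM at *Pdk4* (next 4640), 62.7 at *Acot2* (next 104), 103 at *Cdkn1a* (next 207), 145 at *Eif4ebp1* (next 245), 946 at *Lmod2* (next 1664), 74.2 at *Mafk* (next 124), 12.4 at *Pdp2* (next 20.7), 18.3 at *Plin5* (next 27.8), 280.0 at *Retreg1* (next 676), 30.5 at *Slc25a34* (next 57.8), 164 at *Tacc2* (next 330) and 41.8 at *Ulk1* (next 83.3). It was above them at promoters that fell, with 17.5 CPM at *Aplnr* (next 6.62), 25.2 at *Bhlhe40* (next 16.6), 65.4 at *Ddit4l* (next 37.9), 5.62 at *Hdac9* (next 2.93), 9.79 at *Kbtbd13* (next 3.41), 7.21 at *Lrrc38* (next 2.81), 12.1 at *Myod1* (next 4.24), 2.26 at *Sec14l5* (next 1.38), 80.4 at *Stac3* (next 65.4) and 5.82 at *Tnk2* (next 2.47). Its median log2 changes over promoters called without it, 0.171 upwards and -0.182 downwards, lay apart from those of the other Mid libraries too, and the part of metabolic state in this was not tested.

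Mid 1 had the highest adipocyte marker sum, 4848 CPM (next 3461), and stood above the other Mid libraries at *Acaca* (3.33 CPM at the upstream promoter, next 1.07), *Fasn* (26.7, next 10.9) and *Angptl4* (92.1, next 54.4). The part of fat tissue in these values was not tested. Pre 2 had the highest Schwann cell marker sum, 752 CPM (next 163) and stood apart at *Nr3c1* (17.1, next 14.7) and below the others at *Cry2* (17.5, next 20.1).

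Mid 5 stood above at *Hmox1* (601 CPM, next 148) and *Slc30a2* (21.2, next 9.40). Mid 2 stood above at the upstream *Atf3* promoter (8.47, next 3.70) and *Gm22175* (5.07, next 0.73), and Mid 7 at the other *Atf3* promoter (29.2, next 18.6) and *Osgin1* (12.2, next 8.11). Mid 3 stood above at *Flt1* (165, next 110) and in the endothelial marker sum (460 CPM, next 387), and Mid 4 at *Fitm1* of the lipid droplet (299, next 252). Pre 3 stood above at *Hspb3* (50.7, next 46.7) and *Pdp1* (42.2, next 35.7) and below at *Myc* (2.03, next 2.78), and Pre 1 was below at *Lrrc38* (13.7, next 16.95).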

How the results depend on the processing

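Counts of promoters higher and lower in Mid stayed within 1.5 times of 1659 and 1594 with the likelihood ratio test, DESeq2, RLE or upper-quartile scaling, filterByExpr, the 12 libraries alone, 38 libraries with run as a term, and adipocyte or fast muscle sums as covariates. They were 534 and 924 with library size without TMM and 573 and 480 in the second run alone, which has 2 Pre libraries, and the called pathway list genes went from 437 to 214 and 172 in these fits. Leaving out each library gave 1293 to 1917 higher, 1174 to 1638 lower and 350 to 435 called list genes, lowest without Pre 2 and highest without Mid 6. A Schwann cell sum as a covariate, chosen after seeing the data, gave 1556 and 1552.

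The replicate numbers that Pre and Mid share were not used as pairs, since each library came from 1 mouse and the groups were taken on different days. The correlation of same-numbered deviations was 0.47, -0.07, 0.17 and 0.35. Among Mid 1 to 4, 2 of 4 Pre libraries correlated best with their own number. With so few libraries these values cannot decide whether the numbers carry a pairing. With the replicate block 1478 promoters were higher and 1323 lower, all but 4 of 127 named promoters stayed called, and 3 cytosolic ribosomal protein genes fell.

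Among 144 named promoters, a reversal appeared only in the second run, for *Cox5b* (0.031), which was not called there, and the cause was not tested. Depth limits promoters of a few CPM, and 4 Pre libraries limit all.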
